A study of Brassica napus with 14 samples.

Results

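Seed development in Brassica napus (oilseed rape) is commonly divided into morphogenesis, in which cells divide and the embryo, endosperm and seed coat take shape, and maturation, in which the embryo fills with oil and protein and becomes able to survive drying. The comparison described here sets the maturation stages MG (whole seeds at 28 days post fertilization) and DS (35 days) against the morphogenesis stages GLOB (7 days) and HEART (10 days). All seeds came from the cultivar DH12075, grown under long days at 22 °C and pollinated by hand, with no treatment. MG had 3 libraries, DS 2, GLOB 3 and HEART 3, which is 11 of the 14 libraries of polyadenylated RNA in the series. The other 3 are of OV, whole ovules at day 0, and were not used to choose any gene. The names of the phases are textbook terms and are not in the labels.

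Each gene has 1 value per stage in FPKM, a read count scaled for transcript length and library size. No value per library was given, so the spread between replicates is unknown, nothing below was tested, and the depth is unknown. A gene was considered when it reached 5 FPKM in any of the 4 stages, which left 31433 of 96219 genes (32.7%). It was counted as higher in a phase when the lower of that phase's 2 stages exceeded the higher of the other phase's 2 stages by at least 1 on the log2(FPKM + 1) scale, a 2-fold distance called the gap. That scale understates the change of genes with low values. Whole seeds mix embryo, endosperm and seed coat, so fewer cells of a type and less RNA per cell cannot be told apart. Gene names and roles are those of the Arabidopsis locus that the authors' table pairs with each gene, from general knowledge of Arabidopsis. In an identifier such as BnaN09g09120 the digits after N are the chromosome. It is not stated how the authors' counting split reads between copies of nearly the same sequence, so the value of a single copy is uncertain.

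As background, maturation in Arabidopsis is controlled by transcription factors such as ABI3, FUS3 and LEC2 and by the hormone abscisic acid (ABA). Storage proteins and oil accumulate first. Late embryogenesis abundant (LEA) proteins, small heat shock proteins and sugars of the raffinose family, which protect dry cells, follow as the seed loses water.

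Of the 31433 genes, 3716 were higher in maturation (11.8%) and 5301 were higher in morphogenesis (16.9%). A further 10623 genes (33.8%) had stages of the phases that overlapped. The gap reached 4-fold for 1530 genes higher in maturation and 2631 higher in morphogenesis, 16-fold for 489 and 404, 64-fold for 228 and 50, and 256-fold for 95 and 3. Gaps of 64-fold or more were mostly those of genes higher in maturation. The balance of the counts depended on the minimum and on scaling. At a minimum of 20 FPKM, 2541 genes were higher in maturation and 2347 in morphogenesis. When the 4 stages were scaled to the same FPKM sum, here called a common sum, the median difference between the phases over the genes considered was -0.91 (0.07 as deposited), and 1705 genes were higher in maturation and 10641 in morphogenesis, so that the maturation side was 13.8% of the counted genes in place of 41.2%. Relative to that median the numbers were 3465 and 5477. Without MG, 8670 genes were higher in maturation and 9611 in morphogenesis. Without DS the numbers were 5770 and 6390.

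**Figure D1:**
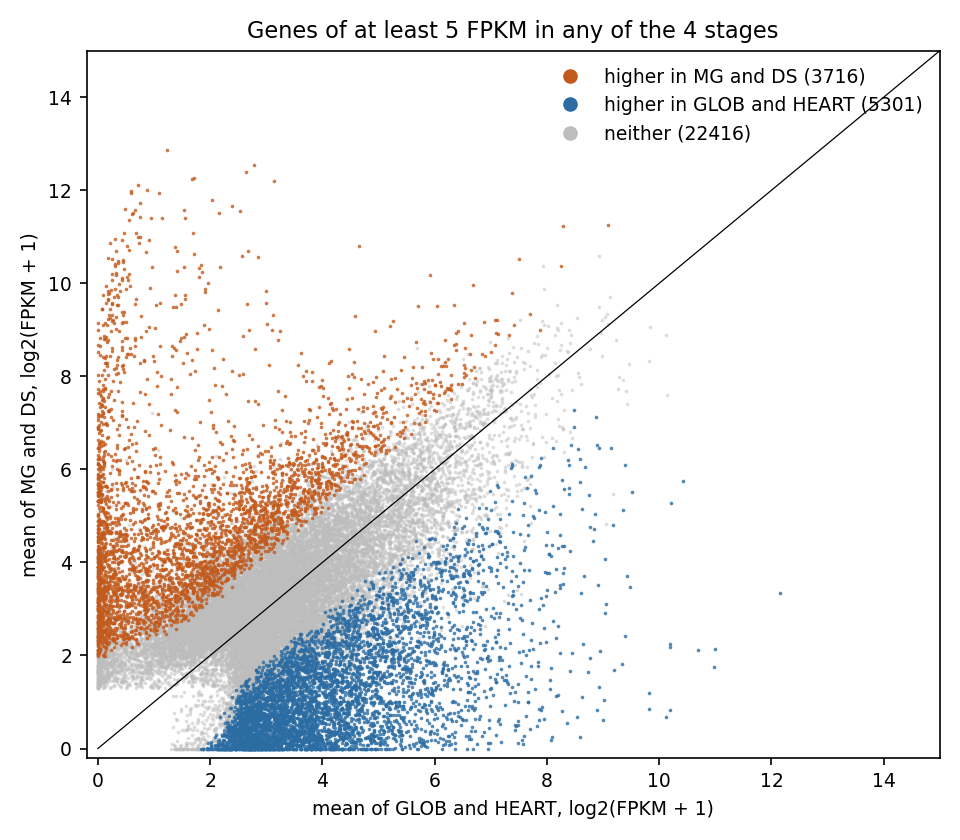
Mean of MG and DS (vertical axis) against the mean of GLOB and HEART (horizontal axis), both as log2(FPKM + 1), for the 31433 genes considered; each point is a gene and the line marks equal levels. The 3716 orange genes are higher in MG and DS, the 5301 blue genes are higher in GLOB and HEART, and many orange genes combine a high level in maturation with a level near 0 in morphogenesis.

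The genes higher in maturation held 61.7% of the summed FPKM of all genes in MG and 53.7% in DS, against 3.86% in GLOB and 4.37% in HEART. The genes higher in morphogenesis held 1.63% in MG and 1.25% in DS, against 34.1% in GLOB and 31.2% in HEART. Among the genes higher in maturation, 37 were at 1000 FPKM or more in both MG and DS. Among those higher in morphogenesis, 6 were at that level in both GLOB and HEART. The lower phase was often near silence. Of the genes higher in maturation, 1349 (36.3%) were below 1 FPKM in GLOB and HEART alike, and of those higher in morphogenesis 1969 (37.1%) were below 1 FPKM in MG and DS alike. For the 37 abundant maturation genes, the higher of GLOB and HEART was between 0.0113% and 42.0% of the MG value, with a median of 0.0257%.

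The genes nearest to the threshold differed modestly. BnaN06g04580 (AT1G07850), just inside on the maturation side, was at 5.73 FPKM in MG and 8.83 in DS, against 2.28 in GLOB and 2.37 in HEART. BnaN05g15550 (AT1G55170) was the next inside. BnaN18g41690 (AT2G24100), just outside, was at 7.41 in MG and 15.4 in DS, against 2.82 in GLOB and 3.21 in HEART, and BnaN13g05000 (AT5G11750) was also just outside. On the morphogenesis side BnaN15g06330 (AT1G09070), just inside, was at 2.54 FPKM in MG and 3.88 in DS, against 10.8 in GLOB and 8.76 in HEART, followed by BnaN17g31490 (AT3G27690). BnaN13g50360 (AT4G34720), just outside, was at 10.8 in MG and 2.63 in DS, against 30.5 in GLOB and 22.5 in HEART, followed by BnaN16g02430 (AT1G48550).

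Of the 12 loci with the widest gaps on the maturation side, 4 are LEA genes and 1 is an oil body gene of the lists described below. The widest belonged to a copy of RAB18, a dehydrin of the LEA class. BnaN09g09120 (AT5G66400) was at 7058 FPKM in MG and 8008 in DS, against 1.62 in GLOB and 1.11 in HEART, a gap of 11.40 on the log2 scale. A second dehydrin, BnaN09g48900 (AT2G21490), was at 3969 in MG and 4135 in DS, against 0.622 in GLOB and 0.402 in HEART. BnaN15g28910 (AT1G48130) encodes PER1, a seed peroxiredoxin that removes peroxides, and was at 4457 FPKM in MG and 3502 in DS, against 0.613 in GLOB and 0.396 in HEART. These genes were high in MG and DS alike, and no GLOB or HEART value of the 12 exceeded 1.62 FPKM.

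The others include antioxidant and membrane proteins. BnaN18g34780 (AT3G56350), of the iron and manganese superoxide dismutase family, was at 1326 FPKM in MG and 1673 in DS, against 0.243 in GLOB and 0.0237 in HEART. BnaN09g50510 (AT1G17810) encodes TIP3;2, a water channel of the vacuole membrane in seeds, and was at 1449 in MG and 1892 in DS, against 0.252 in GLOB and 0.242 in HEART. BnaN18g52620 (AT1G04560), a membrane protein of the AWPM-19 type, was at 2976 in MG and 2771 in DS, against 0.635 in GLOB and 0.413 in HEART. The oleosin OLEO2, which coats oil bodies, leaned to the earlier of the maturation stages. Its copy BnaN04g11740 (AT5G40420) was at 6839 FPKM in MG and 1676 in DS, against 0.776 in GLOB and 0.592 in HEART. The list also held copies of EM6 (BnaN13g23330), LEA76 (BnaN11g42130) and GASA3 (BnaN13g29930, a small peptide of the gibberellin-regulated GASA family), BnaN06g38160 (AT5G45690) and BnaN11g30760 (AT1G54870). Their gaps ran from 9.68 (BnaN11g30760) to 10.22 (BnaN13g23330).

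**Figure D2:**
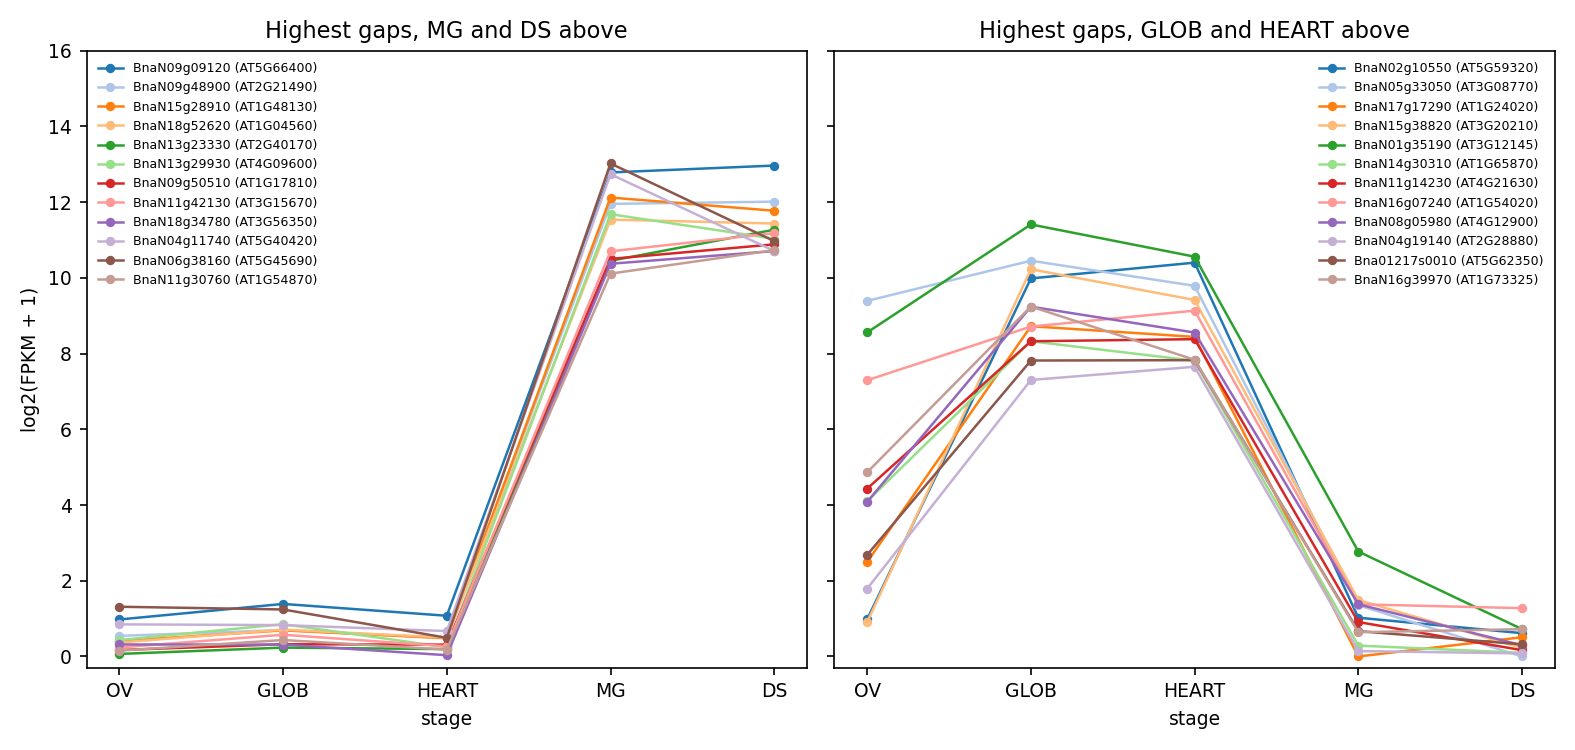
Level in log2(FPKM + 1) at the 5 stages for the 12 loci with the widest gap in each direction, those higher in MG and DS in the left panel and those higher in GLOB and HEART in the right panel; each line is a gene and there is 1 value per stage. The 12 maturation genes are at or below 1.62 FPKM from OV to HEART, whereas the morphogenesis genes differ widely in OV.

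To see which processes lay on either side, 452 Arabidopsis symbols in 28 lists were followed. The table holds 2016 copies of 412 of them, and 1046 copies were considered. They cover 242 (6.51%) of the genes higher in maturation and 256 (4.83%) of those higher in morphogenesis, so the lists describe only a small part of either set. Counts of a list are to be read against the background of 11.8% and 16.9%, and counts on a common sum against 5.27% and 32.9% of the 32329 genes considered on that scale. The copies considered in each list also change on a common sum. Their number on that scale is not given, so those list counts have no exact share. For counts by highest stage, 11132 of all 31433 genes considered were highest in DS, 7721 in MG, 4902 in HEART and 7678 in GLOB. Sums of a list are as deposited and the stage totals differ. All genes summed to 1511542 FPKM in MG, 912604 in DS, 640152 in GLOB, 593838 in HEART and 446090 in OV.

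**Figure D3:**
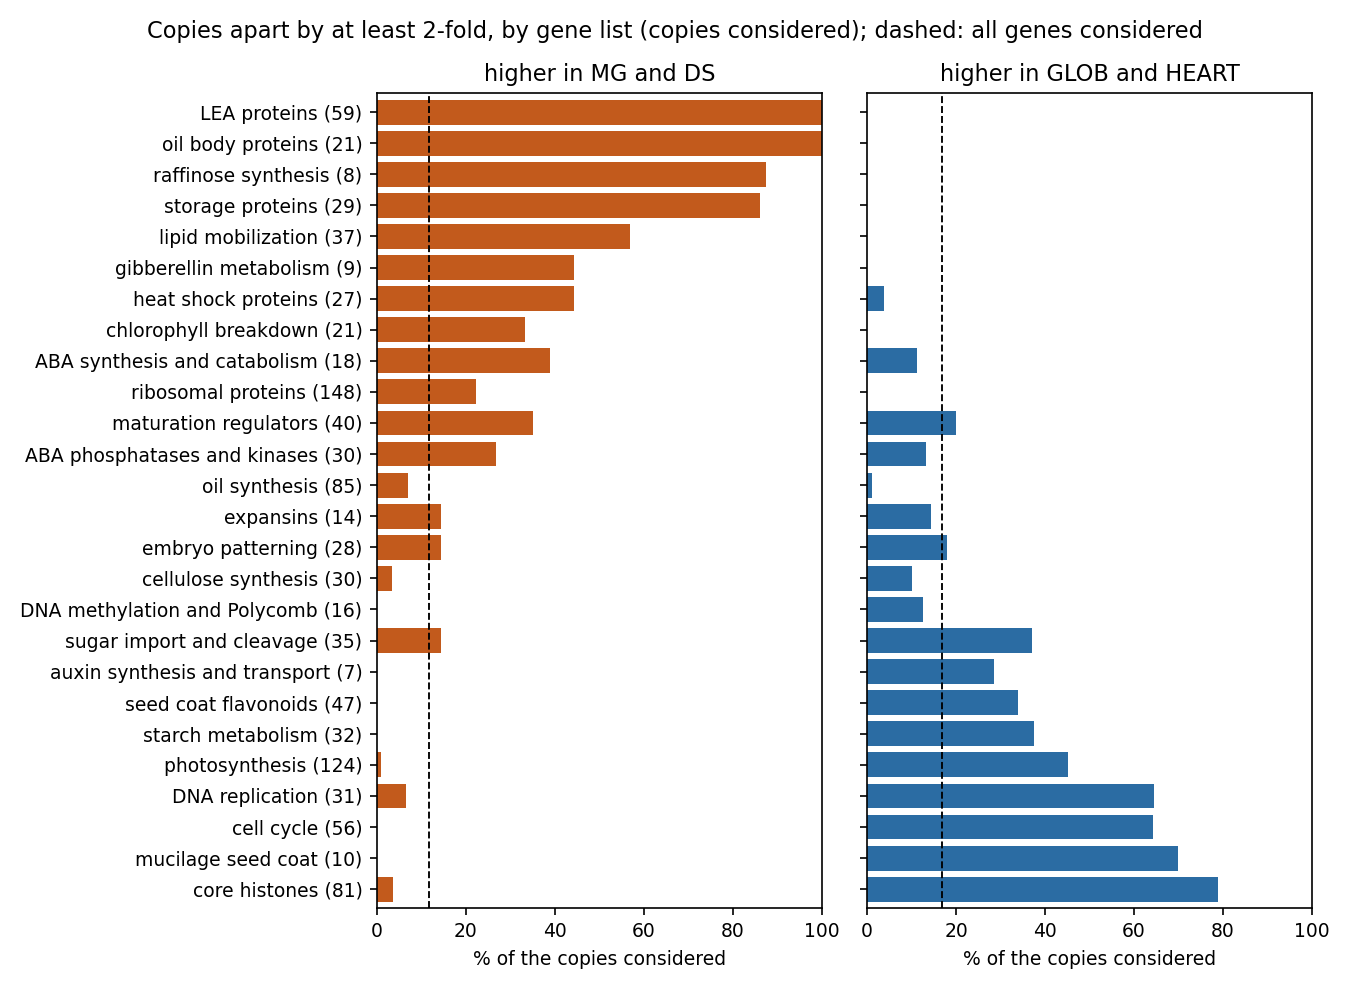
Percentage of the copies considered that were higher in MG and DS (left panel) and higher in GLOB and HEART (right panel), for each gene list with at least 7 copies considered (number in parentheses). Dashed lines mark all genes considered, 11.8% on the left and 16.9% on the right; LEA and oil body proteins reach 100% on the left, and core histones reach 79.0% on the right.

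All 59 LEA copies considered and all 21 oil body copies were higher in maturation, and the same held on a common sum. LEA copies favoured the last stage, 54 of 59 having their highest value in DS, and their summed FPKM was 43892 in MG and 125382 in DS, against 33.5 in GLOB and 63.1 in HEART. EM6, a small hydrophilic LEA protein, showed this most clearly by level. Its copy BnaN14g06350 was at 1121 FPKM in MG and 21270 in DS, against 2.69 in GLOB and 1.95 in HEART. Oil body copies had the opposite lean, all 21 being highest in MG. Their sum was 149454 FPKM in MG and 12686 in DS, against 20.9 in GLOB and 54.8 in HEART. OLEO4, another oleosin, had its strongest copy BnaN09g03040 at 7939 in MG and 941 in DS, against 0.915 in GLOB and 0.490 in HEART. OLEO3, with BnaN10g06610 as its strongest copy, was at 4587 in MG and 623 in DS, against 0.395 in GLOB and 0.548 in HEART.

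Storage protein genes were higher in maturation in 25 of 29 copies (86.2%), 18 on a common sum and 28 relative to its median. As deposited, the remaining 4 copies, of SESA1, SESA4 and CRU2, were high in MG but in DS were less than 2-fold above GLOB or HEART. In all, 27 of 29 copies were highest in MG, and the list summed to 373612 FPKM in MG and 10989 in DS, against 78.5 in GLOB and 52.9 in HEART. The 3 highest values of any gene higher in maturation were those of 2S albumins, small sulfur-rich storage proteins. BnaN11g32850 (SESA1) was at 40418 FPKM in MG and 57.3 in DS, against 5.41 in GLOB and 4.44 in HEART. BnaN13g08730 (SESA4) was at 34924 in MG and 642 in DS, against 3.85 in GLOB and 15.1 in HEART. BnaN17g47970 (SESA3) was at 27518 in MG and 10.0 in DS, against 3.61 in GLOB and 1.97 in HEART, a gap of 1.26 that became 0.83 on a common sum. The globulins differed among themselves in DS. Summed over copies, CRB was at 51134 FPKM in MG and 274 in DS and CRU2 at 5373 in MG and 7.00 in DS. The cruciferin CRA1 copy BnaN17g23240 was at 21005 FPKM in MG and 1105 in DS, against 2.52 in GLOB and 1.88 in HEART. The CRC copy BnaN11g10120 was at 17602 in MG and 478 in DS, against 5.24 in GLOB and 2.22 in HEART. PAP85, a vicilin-like globulin, ran the other way within the phase. Its copy BnaN01g28280 was at 174 FPKM in MG and 3953 in DS, against 0.404 in GLOB and 0.176 in HEART.

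Oil synthesis did not separate the phases in the way the oil body proteins did. Only 6 of 85 copies (7.06%) were higher in maturation and 1 in morphogenesis, below the background on both sides. Scaling to a common sum gave 3 copies higher in maturation and 9 in morphogenesis, or 6 and 4 relative to its median. The maturation stages differed from each other. In MG 53 copies (62.4%) lay at least 2-fold above both GLOB and HEART, against 19.6% of all genes considered. In DS only 9 (10.6%) did, against 28.2% of all, and 41 (48.2%) lay at least 2-fold below both, against 31.1%. The list summed to 8514 FPKM in MG and 950 in DS, against 1243 in GLOB and 1634 in HEART. DGAT1, the enzyme of the last step of triacylglycerol synthesis, was the exception, with all 4 copies higher in maturation as deposited. The whole list had only 3 such copies on a common sum, so not all 4 DGAT1 copies stayed on that side. The strongest DGAT1 copy, BnaN07g01100, was at 64.3 in MG and 89.9 in DS, against 2.18 in GLOB and 2.85 in HEART. PDAT1, which makes triacylglycerol by another route, had 1 of 2 copies higher in maturation, BnaN02g04770, with a gap of 1.34 (0.19 on a common sum).

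Lipid mobilization genes, which release stored oil for the germinating seedling, were already higher in maturation in 21 of 37 copies (56.8%) and in no case higher in morphogenesis. On a common sum 15 copies were higher in maturation, and 20 relative to its median. MLS, the malate synthase of the glyoxylate cycle, had its strongest copy BnaN02g01090 at 394 FPKM in MG and 1298 in DS, against 0.545 in GLOB and 3.13 in HEART. Isocitrate lyase, ICL, the partner enzyme of the same cycle, had BnaN03g36810 at 55.6 in MG and 228 in DS, against 0.107 in GLOB and 1.89 in HEART, and all 4 of its copies were higher in maturation. The peroxisomal citrate synthase CSY3 had BnaN14g03430 at 41.8 in MG and 96.4 in DS, against 3.33 in GLOB and 2.75 in HEART. In 27 of the 37 copies the highest value was in DS.

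Heat shock proteins, mostly small chaperones that hold other proteins soluble, were higher in maturation in 12 of 27 copies (44.4%) and in morphogenesis in 1, a copy of the mitochondrial HSP23.5. In 25 of 27 copies the highest value was in DS, and the sum was 3808 FPKM in MG and 18424 in DS, against 386 in GLOB and 717 in HEART. BnaN06g18630 (HSP17.6C) was at 642 in MG and 4831 in DS, against 6.19e-07 in GLOB and 5.76 in HEART. BnaN13g30230 (HSP22.0) was at 680 in MG and 1319 in DS, against 1.04 in GLOB and 5.93 in HEART, and BnaN11g18450 (HSP23.6) had a gap of 5.17. Of the 8 copies for raffinose family sugars, 7 were higher in maturation. GOLS2 makes galactinol, the donor of the galactose units, and its copy BnaN19g20830 was at 212 FPKM in MG and 463 in DS, against 0.576 in GLOB and 0.805 in HEART. The GOLS1 copy BnaN14g00650 was at 135 in MG and 284 in DS, against 0.353 in GLOB and 1.35 in HEART, whereas stachyose synthase STS (BnaN09g01370) was higher in MG (79.0) than in DS (29.4), against 0.0209 in GLOB and 0.0281 in HEART.

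The maturation regulators lay on both sides, 14 of 40 copies (35.0%) higher in maturation and 8 in morphogenesis. EEL, a bZIP factor, had BnaN14g02030 at 131 FPKM in MG and 176 in DS, against 0.0397 in GLOB and 0.765 in HEART, with all 3 copies higher in maturation. DOG1, which delays germination, had all 5 copies higher in maturation, the strongest, BnaN17g24210, at 232 in MG and 48.1 in DS, listed at 0 in GLOB and at 0.0952 in HEART. ABI5, a bZIP factor of ABA response, had 2 of 4 copies higher in maturation, and BnaN05g08680 was at 50.1 in MG and 441 in DS, against 1.59 in GLOB and 1.69 in HEART. The 8 copies on the other side belonged to bZIP25 (4 of 5 copies) and bZIP53 (4 of 5 copies), factors that in Arabidopsis activate storage protein genes. BnaN13g22440 (bZIP25) was at 3.02 FPKM in MG and 4.09 in DS, against 55.7 in GLOB and 83.5 in HEART. ABI3 and ABI4 each had 2 of 2 copies considered higher in maturation. ABI3 summed to 146 FPKM in MG and 60.2 in DS, against 0.0978 in GLOB and 1.81 in HEART. LEC1, L1L, FUS3, bZIP67 and AGL15 had no copy on either side, and no LEC2 copy was considered. LEC1 summed to 65.7 FPKM in HEART, against 0.677 in GLOB, 0.497 in MG and 0 in DS. Summed over copies, L1L was at 123 FPKM in MG and 6.70 in DS, against 1.05 in GLOB and 9.53 in HEART, and bZIP67 at 110 in MG and 0.387 in DS, against 0 in GLOB and 14.1 in HEART. For L1L and bZIP67 the MG and DS sums thus lay on opposite sides of the HEART sum.

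Hormone genes were split by enzyme. In ABA metabolism 7 of 18 copies were higher in maturation and 2 in morphogenesis, 4 and 5 on a common sum. Relative to the median on that scale the numbers were 5 and 3. NCED enzymes make the ABA precursor, and they divided between the phases. BnaN17g11320 (NCED6) was at 16.4 FPKM in MG and 29.1 in DS, against 0.0163 in GLOB and 0.0322 in HEART. BnaN16g44150 (NCED9) was at 0.942 in MG and 1.57 in DS, against 4.24 in GLOB and 8.19 in HEART, with a gap of 1.03 that was 0.51 relative to the median on a common sum. CYP707A enzymes break ABA down and divided likewise. BnaN04g19270 (CYP707A2) was at 2.07 FPKM in MG and 37.4 in DS and listed at 0 in GLOB and HEART. BnaN09g19430 (CYP707A3) was at 1.75 in MG and 1.74 in DS, against 14.2 in GLOB and 26.2 in HEART.

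Among the phosphatases and kinases of ABA signalling 8 of 30 copies were higher in maturation and 4 in morphogenesis (7 and 9 on a common sum). Relative to the median on that scale the numbers were 8 and 2. The phosphatase AHG1, a brake on ABA response in seeds, had BnaN03g13630 at 14.3 FPKM in MG and 120 in DS, against 0.0271 in GLOB and 0.213 in HEART. HAI3, a phosphatase of the same family, had BnaN05g14170 at 9.90 in MG and 45.4 in DS and listed at 0 in GLOB and HEART. The HAI1 copy BnaN19g44550 had a gap of 1.41 (0.13 on a common sum). Of 70 gibberellin metabolism copies only 9 were considered, and 4 of these were higher in maturation, the copies of KO and KAO2, which make gibberellin precursors. BnaN14g14920 (KAO2) was at 124 FPKM in MG and 121 in DS, against 1.93 in GLOB and 8.83 in HEART, and BnaN17g36340 (KO) at 63.7 in MG and 23.3 in DS, against 1.64 in GLOB and 3.67 in HEART. Auxin genes had 7 of 90 copies considered, with 0 higher in maturation and 2 in morphogenesis, of AUX1 (BnaN05g07080) and TAR2 (BnaN11g17930). The gap of the TAR2 copy was 1.08, and 0.63 relative to the median on a common sum.

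**Figure D4:**
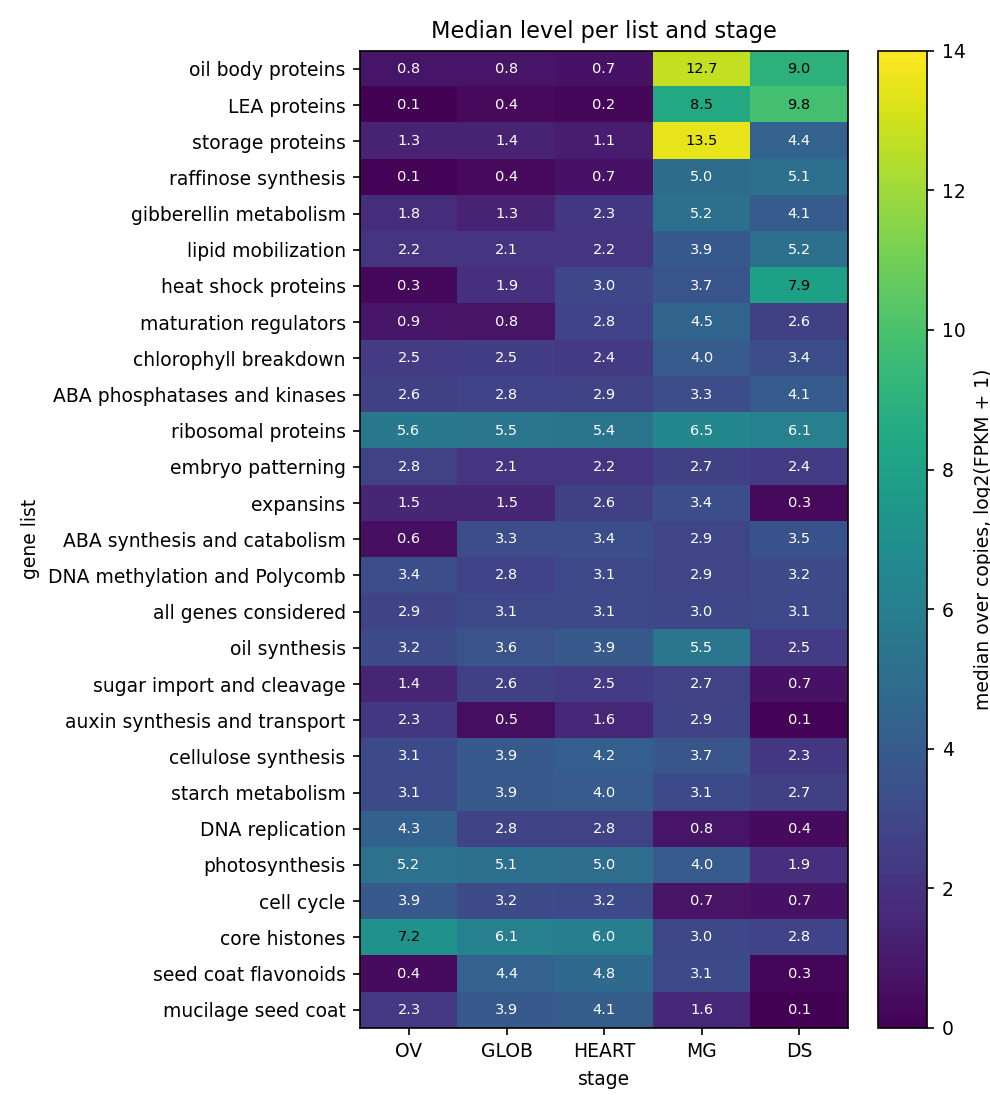
Median level in log2(FPKM + 1) over the copies considered of each gene list (rows) at the 5 stages (columns, in time order), with the value printed in each cell. Storage proteins stand at 13.5 in MG and 4.4 in DS, heat shock proteins at 3.7 in MG and 7.9 in DS, and core histones at 3.0 in MG and 2.8 in DS, against 6.1 in GLOB, 6.0 in HEART and 7.2 in OV.

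Chlorophyll breakdown, which clears green pigment from ripening seeds, was higher in maturation in 7 of 21 copies (2 on a common sum, 7 relative to its median). NYE2, a STAY-GREEN protein that starts the breakdown, had its copy BnaN13g30900 at 82.0 FPKM in MG and 1540 in DS, against 0.331 in GLOB and 0.535 in HEART. NYC1, a chlorophyll b reductase, had BnaN14g37100 at 20.6 in MG and 58.7 in DS, against 5.09 in GLOB and 6.09 in HEART, with a gap of 0.37 on a common sum.

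Photosynthesis genes lay on the other side. Of 124 copies 1 was higher in maturation and 56 (45.2%) in morphogenesis, and on a common sum 1 and 104. Relative to the median on that scale the numbers were 1 and 67. DS was at least 2-fold below both GLOB and HEART in 112 copies (90.3%), against 31.1% of all genes considered. MG was in 61 copies (49.2%), against 20.6% of all. BnaN11g13910 (PSBQ1, of the oxygen-evolving complex) was at 3.27 FPKM in MG and 1.72 in DS, against 44.9 in GLOB and 28.2 in HEART. BnaN14g12650 (LHCB1.4, an antenna protein of photosystem II) was at 39.6 in MG and 14.5 in DS, against 270 in GLOB and 242 in HEART. The single copy on the maturation side, BnaN12g41540, belongs to LHCB2.3, another antenna protein, and was at 4351 FPKM in MG and 532 in DS, against 5.05 in GLOB and 7.62 in HEART. The other 4 LHCB2.3 copies were higher in morphogenesis. The whole list summed to 8122 FPKM in MG, against 7246 in GLOB and 6518 in HEART, and that copy made up more of the MG sum than all the other photosynthesis genes together.

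Genes of cell division lay mainly on the morphogenesis side. For core histones 3 of 81 copies were higher in maturation and 64 (79.0%) in morphogenesis. For the cell cycle the numbers were 0 and 36 (64.3%) of 56 copies, and for DNA replication 2 and 20 (64.5%) of 31. CDKB2;1, a kinase that drives mitosis, had BnaN07g35470 at 0.541 FPKM in MG and 1.59 in DS, against 51.3 in GLOB and 29.3 in HEART. KNOLLE, a syntaxin that builds the new wall between daughter cells, had all 4 copies on this side, and BnaN15g05940 had a gap of 3.34. CDKB2;2 had BnaN07g12050 listed at 0 in MG and at 0.303 in DS, against 14.7 in GLOB and 11.3 in HEART. The median level of the cell cycle copies was 0.71 in MG and 0.70 in DS, against 3.20 in GLOB and 3.17 in HEART, on the log2(FPKM + 1) scale.

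The helicase subunits that unwind DNA for replication showed the same picture at lower levels. BnaN19g01370 (MCM7) was at 0.299 FPKM in MG and 0.0448 in DS, against 9.63 in GLOB and 9.60 in HEART. BnaN03g38810 (MCM5) had a gap of 2.96 and BnaN06g38690 (MCM6) a gap of 2.60. FAS1, a chromatin assembly factor subunit, went the other way with both copies, and BnaN07g27340 was at 6.19 in MG and 14.9 in DS, against 0.565 in GLOB and 1.38 in HEART. Its partner FAS2 had both copies higher in morphogenesis. On a common sum 0 replication copies were higher in maturation, and 2 relative to its median.

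Among histones BnaN12g11280 (HTA6, an H2A) was at 6.28 FPKM in MG and 0.776 in DS, against 279 in GLOB and 122 in HEART. BnaN15g30850 (HTA10) was at 2.44 in MG and 1.13 in DS, against 65.2 in GLOB and 46.4 in HEART. All 12 copies listed under the H3.1 locus HTR1 were higher in morphogenesis. The 3 copies on the maturation side were H2A genes, of HTA1 (both copies) and HTA7. BnaN10g09890 (HTA1) was at 94.8 in MG and 31.7 in DS, against 2.11 in GLOB and 1.77 in HEART.

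Of the genes of the ribosome and nucleolus, as deposited, 33 of 148 copies (22.3%) were higher in maturation and 0 in morphogenesis, with sums of 17083 FPKM in MG and 17065 in DS, against 8534 in GLOB and 7583 in HEART. The counts depended on scaling, with 0 copies higher in maturation and 8 in morphogenesis on a common sum, where 32.9% of all genes considered were higher in morphogenesis. Relative to the median on that scale they were 32 and 0, and after quantile normalization 19 copies were higher in maturation. The widest differences were those of nucleolar proteins and RPL4A. CBF5, a pseudouridine synthase of ribosomal RNA, had BnaN07g18780 at 30.9 in MG and 204 in DS, against 4.03 in GLOB and 10.4 in HEART. FIB2, a fibrillarin, had BnaN08g17240 at 89.3 in MG and 396 in DS, against 29.5 in GLOB and 30.4 in HEART. RPL4A, a protein of the large subunit, had BnaN01g36680 at 279 in MG and 689 in DS, against 61.3 in GLOB and 84.5 in HEART. On a common sum their gaps were 0.21 (BnaN07g18780), 0.20 (BnaN08g17240) and 0.37 (BnaN01g36680), below the threshold.

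No seed coat copy was higher in maturation. For flavonoid genes 0 of 47 copies were higher in maturation and 16 (34.0%) in morphogenesis, and for mucilage and seed coat epidermis genes 0 and 7 of 10. TT12, a vacuolar transporter of tannin precursors, had BnaN07g19730 at 1.44 FPKM in MG and listed at 0 in DS, against 27.9 in GLOB and 24.9 in HEART. TT16, a MADS-box factor of the inner coat, had all 6 copies on this side, and BnaN03g40150 was at 0.470 in MG and 0.0809 in DS, against 50.8 in GLOB and 7.74 in HEART. TT7, a flavonoid hydroxylase, had BnaN10g24560 at 5.98 in MG and 0.612 in DS, against 43.7 in GLOB and 51.0 in HEART. MYB61 and GL2, regulators of mucilage, had BnaN08g28880 and BnaN07g21500 with gaps of 2.66 and 2.85. Summed, the flavonoid list was at 1819 FPKM in MG and 80.3 in DS, against 1588 in GLOB and 2807 in HEART, and the mucilage list at 33.9 in MG and 6.15 in DS, against 188 in GLOB and 226 in HEART. At least 2-fold below both GLOB and HEART were 38 flavonoid copies (80.9%) in DS and 16 (34.0%) in MG. Of all genes considered, 31.1% were so in DS and 20.6% in MG. The mucilage list was lower in both stages. Scaled to a common sum, 27 flavonoid and 11 mucilage copies were higher in morphogenesis, and 18 and 8 relative to its median. These are not out of the 47 and 10 copies above, since the copies considered change on that scale. The part of seed coat in the other results was not tested. For endosperm growth only 3 of 63 copies were considered, of which both TTG2 copies (as BnaN13g21150) were higher in morphogenesis. The remaining copy, of AGL62, was on neither side and had its highest value in MG. So few copies do not describe the endosperm. Pollen markers had 0 of 13 copies considered and summed to at most 0.288 FPKM in any of the 4 stages.

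Sugar genes differed by enzyme and isoform, and starch genes lay on the morphogenesis side or on neither. Of 35 copies for sugar import and cleavage 5 were higher in maturation and 13 (37.1%) in morphogenesis. Sucrose synthases, which split sucrose, were divided by isoform. BnaN09g01570 (SUS3) was at 156 FPKM in MG and 122 in DS, against 0.0113 in GLOB and listed at 0 in HEART, whereas BnaN13g10740 (SUS1), at 0.489 in DS, against 76.9 in GLOB and 47.1 in HEART, had a gap of 4.45 the other way. Both SUS3 copies were on the maturation side and all 4 SUS1 copies on the morphogenesis side. The sucrose carrier SUC2 had BnaN17g18030 at 33.4 in MG and 6.25 in DS, against 0.613 in GLOB and 0.808 in HEART. The cell wall invertase CWINV4 had BnaN04g23740 at 0.530 in MG and listed at 0 in DS, against 49.2 in GLOB and 15.9 in HEART. Of 32 starch copies 0 were higher in maturation and 12 (37.5%) in morphogenesis. SEX4, a phosphatase of starch breakdown, had BnaN18g30890 at 3.03 in MG and 0.331 in DS, against 107 in GLOB and 84.7 in HEART. BAM3, a beta-amylase, had BnaN17g42120 with a gap of 2.37, and GBSS1, which makes amylose, had BnaN15g33370 at 6.76 in MG and 1.37 in DS, against 46.3 in GLOB and 37.8 in HEART.

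As deposited, the remaining lists were near or below the background of 11.8% and 16.9%. Embryo patterning genes had 4 of 28 copies (14.3%) higher in maturation and 5 (17.9%) in morphogenesis, 2 and 7 on a common sum. Relative to the median on that scale the numbers were 5 and 6. The leaf polarity factor PHB had BnaN14g12220 at 6.14 FPKM in MG and 9.05 in DS, against 0.107 in GLOB and 0.820 in HEART. SCR (BnaN09g39280) and PDF2 (BnaN13g31630) were on the same side with gaps of 1.25 and 1.27, or 0.26 and 0.84 on a common sum. MP, an auxin response factor, had 4 of the 5 copies on the morphogenesis side. DNA methylation and Polycomb genes had 0 and 2 of 16, among them the histone methyltransferase KYP (BnaN03g05480). On a common sum the numbers were 0 and 5, and relative to its median 0 and 2. Cellulose synthesis had 1 and 3 of 30, which became 1 and 15 on a common sum and 1 and 4 relative to its median, with CESA6 (BnaN19g08940) on the morphogenesis side at a gap of 1.21. Expansins had 2 and 2 of 14 (14.3% on either side), with EXPA10 (BnaN15g21310) and EXPA9 (BnaN19g61860) on the maturation side, and on a common sum 0 and 6.

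Lipid transfer proteins, which carry lipids in the cell wall, had the widest gaps on the morphogenesis side. BnaN02g10550 (AT5G59320, LTP3) was at 1.03 FPKM in MG and 0.532 in DS, against 1013 in GLOB and 1353 in HEART, a gap of 8.96. BnaN05g33050 (AT3G08770, LTP6) was at 1.56 in MG and 9.28e-05 in DS, against 1402 in GLOB and 884 in HEART. BnaN15g38820 (AT3G20210) encodes delta-VPE, a protease that acts in seed coat cell death in Arabidopsis, and was at 1.81 in MG and 0.168 in DS, against 1199 in GLOB and 682 in HEART. BnaN17g17290 (AT1G24020, the major latex protein MLP423) was listed at 0 in MG and at 0.422 in DS, against 422 in GLOB and 347 in HEART. None of these 4 exceeded 1.81 FPKM in MG or DS.

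BnaN01g35190 (AT3G12145), which encodes the leucine-rich repeat protein FLOR1, was at 5.83 FPKM in MG and 0.649 in DS, against 2724 in GLOB and 1509 in HEART. A Kunitz-type inhibitor, BnaN16g39970 (AT1G73325), was at 0.560 in MG and 0.647 in DS, against 605 in GLOB and 228 in HEART. The subtilisin-like protease gene BnaN11g14230 (AT4G21630) was at 0.879 in MG and 0.123 in DS, against 320 in GLOB and 333 in HEART. The others of the 12 were BnaN14g30310 (AT1G65870, dirigent-like), BnaN16g07240 (AT1G54020, a GDSL-type lipase), BnaN08g05980 (AT4G12900, a thiol reductase), BnaN04g19140 (AT2G28880) and Bna01217s0010 (AT5G62350, of the invertase and pectin methylesterase inhibitor family). Their gaps lay between 7.15 (Bna01217s0010) and 7.52 (BnaN14g30310). By level, the Kunitz-type gene BnaN07g32230 (AT1G72290) was first, at 19.4 FPKM in MG and 4.01 in DS, against 7585 in GLOB and 2730 in HEART, followed by BnaN01g35190. The beta-glucosidase gene BnaN05g16660 (AT1G52400) came next, at 4.50 FPKM in MG and 3.04 in DS, against 2197 in GLOB and 617 in HEART.

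The phases were not equally uniform inside. Of the genes higher in maturation, 1193 (32.1%) were at least 2-fold higher in DS than in MG, 571 (15.4%) were at least 2-fold higher in MG and 1952 (52.5%) lay within 2-fold. Of the genes higher in morphogenesis, 317 (5.98%) were at least 2-fold higher in HEART than in GLOB, 400 (7.55%) were higher in GLOB and 4584 (86.5%) lay within 2-fold. The stages are 7 days apart in maturation and 3 days apart in morphogenesis. The rule leaves out genes of a single stage, and these were many in DS: 5284 genes were at least 2-fold above the other 3 stages in DS alone, 2557 in MG alone, 731 in HEART alone and 596 in GLOB alone.

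OV was not used to choose the genes. On the log2 scale OV was nearer to the GLOB and HEART mean than to the MG and DS mean for 3414 (91.9%) of the genes higher in maturation and 3005 (56.7%) of those higher in morphogenesis, against 19530 (62.1%) of all genes considered. The shares were 88.3% and 77.5% on a common sum, against 69.0% of all, so that the genes higher in morphogenesis lay below the share of all genes as deposited and above it on a common sum. In 2966 genes higher in maturation (79.8%) OV was also at least 2-fold below both MG and DS. In 282 (7.59%) OV was at least 2-fold above both GLOB and HEART, and in 80 (2.15%) it was at or above the lower of MG and DS. With a pseudocount of 0.1 these numbers were 673 and 196. The genes higher in morphogenesis were of several kinds. In 2452 (46.3%) OV was at least 2-fold below both GLOB and HEART, and in 1090 (20.6%) it was at or below the higher of MG and DS, so that these were high in the young seed alone. In 1292 (24.4%) OV was at or above the lower of GLOB and HEART. On a common sum that number was 4842 of 10641.

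The lists also differed in OV. Cell division genes were higher still in OV, with a DNA replication sum of 737 FPKM and a core histone sum of 14265 FPKM, against the GLOB sums of 324 and 7604. Seed coat flavonoid genes were low in OV, with a median level of 0.41 on the log2(FPKM + 1) scale, against 4.41 in GLOB and 4.78 in HEART. TT16 was an exception. Its copies summed to 378 FPKM in OV, against 190 in GLOB and 42.0 in HEART, with BnaN03g40150 at 72.0 in OV. TT8 and TT1 also had their highest sums in OV, at 9.48 and 4.67 FPKM. Among the widest gaps, LTP3 (BnaN02g10550) was at 0.981 FPKM in OV and LTP6 (BnaN05g33050) at 671. The first was thus near 1 FPKM in the ovule and the other already abundant there.

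**Figure D5:**
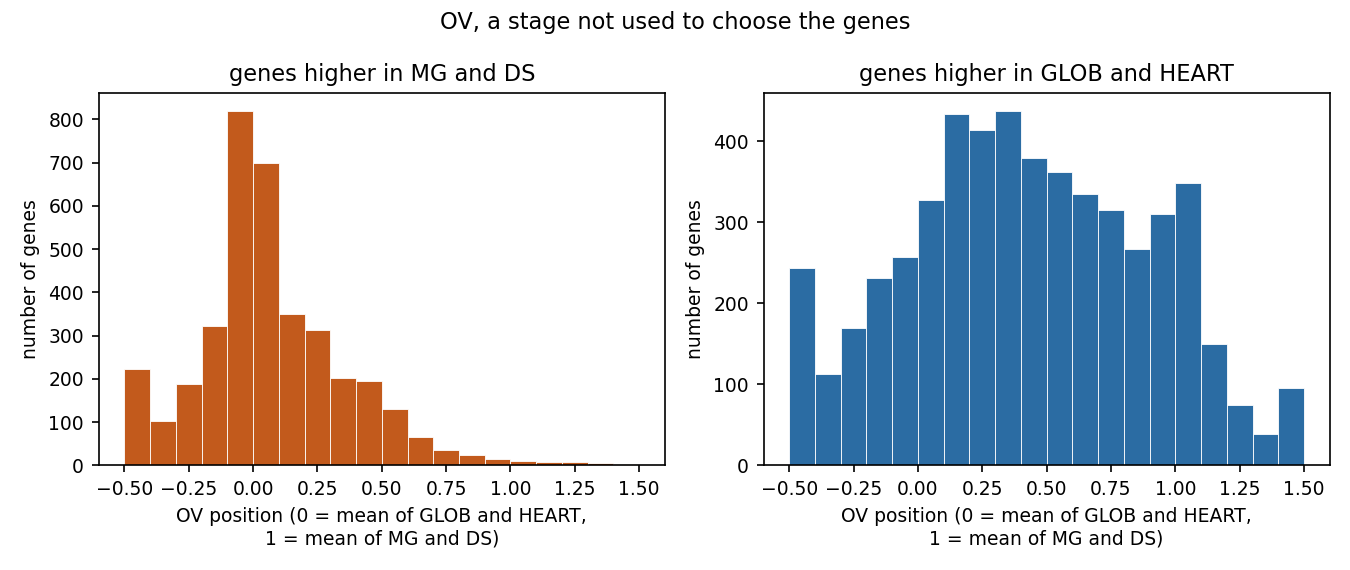
Position of the OV level between the phases for the 3716 genes higher in MG and DS (left panel) and the 5301 genes higher in GLOB and HEART (right panel), on the log2(FPKM + 1) scale, where 0 is the mean of GLOB and HEART and 1 the mean of MG and DS; genes beyond the axis are in the end bars. The left panel has its peak at 0, with 91.9% of genes nearer to 0, and the right panel is spread over the whole range, with 56.7%.

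Copies of an Arabidopsis locus were often not counted together. Of 9513 loci with at least 2 copies considered, 5242 (55.1%) had no copy on either side. All copies were higher in maturation in 538 (5.66%) and higher in morphogenesis in 833 (8.76%). Another 2726 (28.7%) had some copies on a single side and 174 (1.83%) had copies on both sides. A copy just short of the threshold counts here as on neither side. Loci with exactly 1 gene on an A and 1 on a C chromosome gave 2413 pairs with both copies considered. Of the 429 pairs with any copy higher in maturation, 221 (51.5%) had both. Of the 437 with any copy higher in morphogenesis, 252 (57.7%) had both. In 0 pairs were the copies on opposite sides. Of the genes with a place in a subgenome, C genes were 49.4% of those higher in maturation and 48.0% of those higher in morphogenesis, against 50.3% of all considered.

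The 3 loci whose copies on opposite sides lay farthest apart are all linked, in Arabidopsis, to glucosinolates, the sulfur compounds that crucifers use in defence. AT3G16410 encodes the nitrile-specifier protein NSP4, which steers glucosinolate breakdown. Its copy BnaN13g78970 was at 751 FPKM in MG and 726 in DS, against 0.399 in GLOB and 0.146 in HEART. Its copy BnaN13g78950, close to it by identifier on the same chromosome, was at 1.01 in MG and 0.170 in DS, against 275 in GLOB and 193 in HEART. The remaining copy, BnaN08g02070, was also higher in morphogenesis, at 0.468 in MG and 0.533 in DS, against 168 in GLOB and 114 in HEART. Copies of 1 locus thus held mirror-image profiles.

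AT1G52030 encodes the myrosinase-binding protein MBP2, with 7 of 9 copies higher in maturation and 2 in morphogenesis. BnaN16g09260 was at 806 FPKM in MG and 722 in DS, against 0.161 in GLOB and 0.0554 in HEART. BnaN06g01900 was at 1.71 in MG and 2.36 in DS, against 241 in GLOB and 78.0 in HEART. AT1G74090 encodes the sulfotransferase SOT18, which makes the last step of the glucosinolate core, with 3 of 10 copies higher in maturation and 4 in morphogenesis. BnaN09g15490 was at 290 FPKM in MG and 331 in DS, listed at 0 in GLOB and at 0.218 in HEART. BnaN07g33540 was at 0.788 in MG and 0.0373 in DS, against 115 in GLOB and 136 in HEART.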

How the data were processed

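The authors deposited 1 table of FPKM values with 1 column per stage. Per the labels and the series text, reads of 100 bases were trimmed with Trimmomatic (version 0.36), aligned with HiSat2 to the DH12075 genome and quantified with Cuffquant and Cuffdiff. The submitters' processing notes also name TopHat2 and Cuffnorm. The annotation version, the normalization of libraries and the way replicates were combined are not given in the sources used here. Another 2 columns match no sample and were not used. Depth per library is unknown.

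From these values log2(FPKM + 1), phase means and gaps were computed with Python 3.11.15 and pandas 2.3.3. Genes needed 5 FPKM in any of the 4 stages and a gap of 1. The phases, the lists and the rules were chosen with earlier results of these data known. Named genes are the 12 loci with the widest gap per direction, the 3 highest genes, those nearest the threshold, the strongest copy of up to 5 symbols per list and the 3 loci with copies farthest apart. Subgenomes were read from the chromosome number, with the letter that most paired Darmor identifiers carry. The counting function was tested on simulated data. No sequence is shown, since none was used here.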

Additional observations from a re-analysis of the deposited data

How the results depend on the processing

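No paired analysis was possible because the libraries have no values of their own, and for the same reason no replicate could be left out. On a common sum 1705 genes were higher in maturation and 10641 in morphogenesis. Of the maturation set 789 were higher in DS, 269 in MG and 647 within 2-fold, and of the morphogenesis set 549 were higher in HEART and 9619 within 2-fold. OV was nearer to morphogenesis for 1506 and 8244 of these genes, at least 2-fold below MG and DS for 1412 maturation genes, at least 2-fold above MG and DS for 8009 morphogenesis genes, at or above the lower of GLOB and HEART for 4842 and 2-fold above both for 715. All copies of a locus were higher in maturation for 263 loci and in morphogenesis for 1835. Pairs with both, only A and only C copies numbered 114, 41 and 36 for maturation and 572, 186 and 181 for morphogenesis.

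Copies higher in maturation on a common sum numbered 3 for oil synthesis, 4 for ABA metabolism, 2 for chlorophyll breakdown, 0 for DNA replication, 0 for ribosomal proteins, 2 for embryo patterning and 0 for expansins. Relative to its median the numbers were, in the same order, 6, 5, 7, 2, 32, 5 and 2. Copies higher in morphogenesis numbered 9 for oil synthesis, 2 for heat shock proteins, 5 for ABA metabolism, 9 for ABA signalling, 1 for chlorophyll breakdown, 104 for photosynthesis, 8 for ribosomal proteins, 5 for DNA methylation and Polycomb, 15 for cellulose, 6 for expansins, 27 for flavonoids and 11 for mucilage. Relative to the median of the common sum, copies higher in morphogenesis were 4 for oil synthesis, 2 for heat shock proteins, 2 for ABA signalling and 1 for auxin. Quantile normalization gave 19 ribosomal copies higher in maturation, and 1 auxin and 1 DNA methylation copy higher in morphogenesis. It put OV 2-fold above GLOB and HEART in 475 maturation and 372 morphogenesis genes, and at or above the lower of MG and DS in 210. With a pseudocount of 0.1 the first and last of these were 673 and 196, and 1 chlorophyll breakdown copy was higher in morphogenesis.

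The numbers of genes higher in maturation and in morphogenesis were 2170 and 3164 with a pseudocount of 5, 1530 and 2631 with a 4-fold gap, 8670 and 9611 without MG, and 8223 and 8934 by the difference of phase means. Without DS 5770 genes were higher in maturation, and at a minimum of 20 FPKM 2541 were higher in maturation and 2347 in morphogenesis. Without GLOB the numbers were 4217 and 5640, and without HEART 4736 and 5951. A 4-fold gap and a pseudocount of 5 make the rule stricter, and phase means make it looser, so those counts could move only that way. Leaving out a stage removes a value that must lie apart. The cause of the other shifts was not tested. The relation between the counts of both directions thus depends on the scaling and on the minimum, and a single value per stage gives no measure of error.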

Other observations

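Outside the 3 loci described above, other families with copies on both sides of the comparison include abundant genes. They were chosen after their values were seen. AT2G38530, the lipid transfer protein LTP2, had 1 copy on each side. BnaN04g25150 was at 12619 FPKM in MG and 114 in DS, against 2.51 in GLOB and 2.71 in HEART. BnaN05g06710 was at 78.0 in MG and 7.71 in DS, against 546 in GLOB and 379 in HEART. Both were expressed in OV, at 57.3 FPKM (BnaN04g25150) and 192 FPKM (BnaN05g06710). AT1G65960, a glutamate decarboxylase of the GABA pathway, had 5 of 7 copies higher in maturation and 2 in morphogenesis. Its copy BnaN14g14630 was at 1198 FPKM in MG and 115 in DS, against 0.320 in GLOB and 0.0732 in HEART, whereas BnaN16g32950 was at 0.819 in MG and 0.604 in DS, against 29.2 in GLOB and 19.1 in HEART.

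AT5G26280, a gene of the TRAF-like family, had 1 of 8 copies higher in maturation and 5 in morphogenesis. Neighbours by identifier stood on opposite sides. BnaN09g05230 was at 1210 FPKM in MG and 2.42 in DS, against 0.125 in GLOB and listed at 0 in HEART. BnaN09g05220 was at 0.656 in MG and 0.417 in DS, against 172 in GLOB and 89.6 in HEART. AT3G44300, the nitrilase NIT2, had 3 of 8 copies higher in maturation and 1 in morphogenesis. BnaN03g11540 was at 247 FPKM in MG and 574 in DS, against 1.16 in GLOB and 2.19 in HEART, whereas BnaN02g06510 was at 5.06 in MG and 2.26 in DS, against 135 in GLOB and 123 in HEART.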
